A study of Mus musculus with 4 samples.

Results

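The genes described here are 37 imprinted genes that lie outside the Cdkn1c domain, measured in surface cells of the fetal mouse liver with and without p57. Members were taken by name from a list, and a probe set counted as theirs when the platform annotation gave it that symbol alone. Of the 37 genes, 32 had such a probe set, out of 18193 genes named this way on the array, and together they had 91 probe sets among the 45037 left after controls were set aside. H19, Rtl1, Dio3, Slc22a3 and Peg13 had none and have no value here; for H19 the array has 1 probe set that also carries a second gene's symbol, which was not used. The cells were mesothelium, the sheet that covers the liver, and the submesothelial cells beneath it. They were cut from livers of C57BL/6 embryos at embryonic day 17.5. Wild-type embryos (p57+/+) were compared with embryos lacking p57 (p57-/-, genotype Kip2 -/-), and no other allele or treatment is named in the labels. Each genotype had 2 samples, titled as 1 for experiment 1 and 1 for experiment 2, and each was hybridised to its own Affymetrix expression array. The labels do not say how many embryos made up a sample, and a p-value here reflects no more than the spread of these particular samples.

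Imprinted genes are transcribed mainly from the copy inherited from 1 parent. In most of them the choice is carried by DNA methylation at CpG sites, set in the germ line and copied at each cell division. Most of these genes sit in clusters under a shared control region, and many act on fetal and placental growth. Cdkn1c, which encodes p57, is itself imprinted and is expressed from the maternal copy. The array reads total transcript and does not separate the parental copies, so none of the values below says which copy was expressed.

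The stretches of DNA just before the start sites of Plagl1, Dlk1 and Zdbf2 are shown, with the stretch between the start sites of Peg3 and Usp29. The first 3 genes were detected on all 4 arrays. Of the last pair of neighbours, only Peg3 had a probe set detected well enough to test. They come from RefSeq in the GRCm38.p6 build and are written 5′ to 3′, with each CpG in capitals. Plagl1 is on the plus strand at chr10:13090582-13090831, Dlk1 on the plus strand at chr12:109452573-109452822, and Zdbf2, in the CpG-richer of its 2 windows, on the plus strand at chr1:63273019-63273268. The Peg3 and Usp29 stretch is the plus strand of chr7:6730420-6730582, with Peg3 read leftward from its left end and Usp29 rightward from its right end.
Plagl1: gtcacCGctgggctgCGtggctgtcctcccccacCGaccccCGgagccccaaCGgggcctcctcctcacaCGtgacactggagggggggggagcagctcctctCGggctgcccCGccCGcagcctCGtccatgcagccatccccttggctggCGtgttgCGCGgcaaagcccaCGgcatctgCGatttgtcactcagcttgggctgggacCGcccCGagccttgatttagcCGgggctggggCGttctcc
Dlk1: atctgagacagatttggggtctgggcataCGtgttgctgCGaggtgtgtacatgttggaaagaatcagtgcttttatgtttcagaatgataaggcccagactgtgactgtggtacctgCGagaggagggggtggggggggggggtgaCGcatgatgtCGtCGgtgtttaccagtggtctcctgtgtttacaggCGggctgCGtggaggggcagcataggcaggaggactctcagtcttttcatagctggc
Zdbf2: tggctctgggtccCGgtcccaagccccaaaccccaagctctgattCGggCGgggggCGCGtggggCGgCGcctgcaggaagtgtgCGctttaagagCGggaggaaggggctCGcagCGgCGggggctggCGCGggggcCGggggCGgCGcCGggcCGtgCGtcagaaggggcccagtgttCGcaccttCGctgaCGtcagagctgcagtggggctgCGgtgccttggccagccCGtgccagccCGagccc
Peg3-Usp29: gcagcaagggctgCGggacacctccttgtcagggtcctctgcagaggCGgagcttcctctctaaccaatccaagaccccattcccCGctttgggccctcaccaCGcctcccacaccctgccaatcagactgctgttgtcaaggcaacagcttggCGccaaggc
These hold 19 CpGs for Plagl1, 8 for Dlk1, 26 for Zdbf2 and 5 in the 163 bases between Peg3 and Usp29. In windows from 250 bases before to 50 bases after a start site, taking the CpG-richest window of a gene, at least 10 CpGs were found in 25 of the 31 members with a window and in 45.8% of all genes. The median was 17 CpGs over the 24 such members that were detected well enough to test and 17 over the 7 others, against 8 over all genes. This comparison is not matched: the richest window was taken from 49 windows for the 31 members and from 32851 for all 27025 genes with a window. A CpG count is a feature of the sequence, and methylation was not measured.

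The arrays called 48.4% to 50% of probe sets Present, and their median signals lay between 76.0 and 82.7. Cdkn1c, the deleted gene, gave 10255 and 9866 in p57+/+ while the p57-/- arrays read 7.79 and 7.28, both Absent, so all 4 labels held. Sex-linked transcripts differed between the p57+/+ samples. Xist, transcribed from the inactive X chromosome, gave 12199 and 86.7 in p57+/+ against 7889 and 6412 in p57-/-, and Eif2s3y on the Y chromosome gave 2.56 (Absent) and 1734 against 966 and 904. Experiment 1 thus set a p57+/+ array with Xist and without Eif2s3y against a p57-/- array with both. In experiment 2 the p57+/+ array had Eif2s3y and little Xist, again against a p57-/- array with both. The part of sex in the changes was not tested. All 13 genes of the mesothelium list passed the detection filter, with summed signals of 17289 and 22213 in p57+/+ against 16872 and 20994 in p57-/-. These sums are led by Krt8 and Krt18, at 4192 and 3924 on the first p57+/+ array, and do not measure the share of mesothelium. Of the 13, 4 were higher in both experiments and 6 lower, beside 29.6% and 26.7% of all tested genes. Genes of hepatocytes, red cell precursors, granulocytes and macrophages were also detected, some with very high signals. The 6 tested hepatocyte genes summed to 244568 and 304356 in p57+/+ against 284714 and 274383 in p57-/-. The 5 granulocyte genes summed to 130270.3 and 127443 against 138173 and 143713. Which cells the members' signals came from was not tested. In such mixed samples fewer cells of a type and less RNA per cell cannot be told apart. Of 7 skeletal muscle genes only Mylpf passed the filter, at 1222 on the first p57+/+ array and 218 to 299 on the others. Only 1 of the 7 was Absent on all 4 arrays. None of 5 adrenal genes passed, and 3 were Absent on all 4 arrays. Of 5 neural genes 1 passed, and 3 were Absent on all 4 arrays.

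Detection was common among the imprinted genes. Testing required a Present call on 2 or more of the 4 arrays, and 62 of the 91 member probe sets, for 26 of the 32 genes, met this. Of the 91, 56 were Present on all 4 arrays (61.5%, beside 42.2% of all probe sets), and 20 were Absent on all 4 (22%, beside 40%). The comparison is not matched, because all probe sets include 9160 with no symbol and 932 with several. Meg3 alone held 9 of the 56. By gene, 24 of the 32 had a probe set Present on all 4 arrays, beside 10419 of the 18193 genes named on the array. The 26 of 32 that were tested stand beside 11656 of the 18193. Nor is this matched, because the 32 genes had 91 probe sets and the 18193 genes had 34945. Signals are the authors' scaled signals on a linear scale, given for experiment 1 and then experiment 2. The change in an experiment is the difference between its 2 arrays, which are put together by their number alone; whether they share more than the number is not stated in the labels. Each gene is described by its tested probe set of highest mean log2 signal. A signal depends on the probes as well as on the RNA, so levels are compared between arrays for 1 probe set and never between genes.

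**Figure D1:**
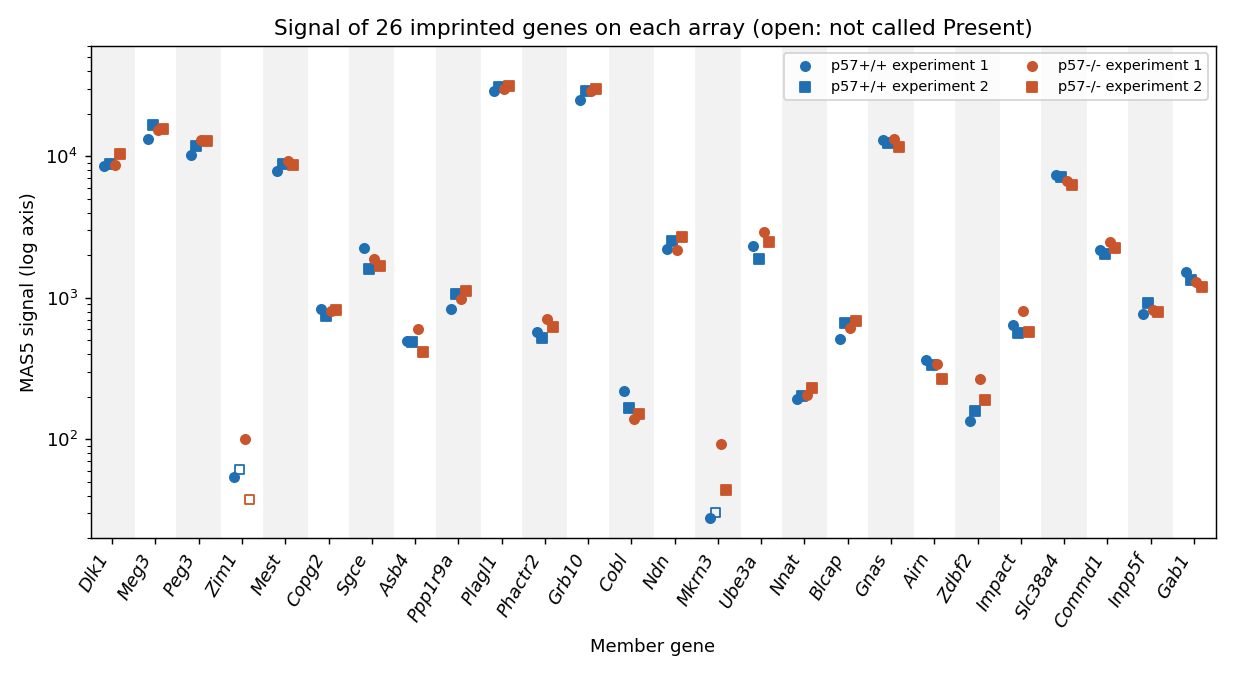
Signal of the best-detected probe set of each of the 26 tested imprinted genes on the 4 arrays, on a log axis, with p57+/+ in blue and p57-/- in orange, experiment 1 as circles and experiment 2 as squares; open symbols were not called Present. For most genes the 4 symbols lie close together, while Mkrn3 and Zim1 spread widely; heights are not compared between genes.

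None of the 26 tested imprinted genes changed past the threshold. With limma, 0 of the 62 member probe sets had an adjusted p under 0.05, beside 0.00439% of all 22800 tested probe sets, which is Cdkn1c alone. Leaving out 1 array gave between 5 and 221 calls over all probe sets, the most without p57-/- replicate 2, and 0 among the members each time. The lowest adjusted p among the members, on all 4 arrays, was 0.573. At an unadjusted p under 0.05 there were 5 of 62, or 8.06%, beside 7.67% of all tested probe sets. Over the 26 genes the median log2 change, p57-/- minus p57+/+, was 0.10, and over all 11656 tested genes it was 0.02. Changes ran from -0.39 for Cobl to 1.13 for Mkrn3. The 95% interval of the change lay within -1 to 1, that is within a 2-fold change either way, for 23 of the 26 genes (88.5%, beside 83.8% of all tested genes). The exceptions were Zim1, Mkrn3 and Zdbf2. The median size of the change, regardless of sign, was 0.15 on the log2 scale, against 0.18 between the p57+/+ arrays and 0.17 between the p57-/- arrays. Over all tested genes these medians were close to the members', at 0.16, 0.17 and 0.20. In 14 of the 26 genes the change was smaller than the gap between the p57+/+ arrays, a share that was not counted over all tested genes.

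**Figure D2:**
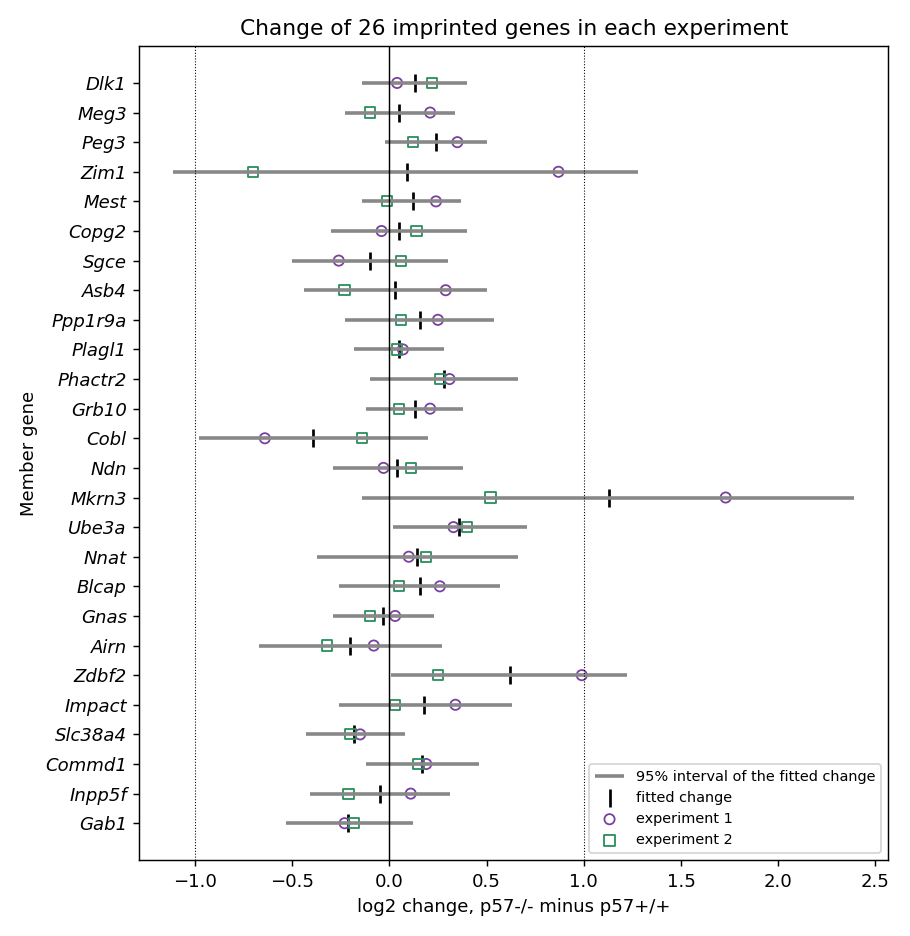
Log2 change of each tested imprinted gene, p57-/- minus p57+/+, in experiment 1 (circles) and experiment 2 (squares), with the fitted change (black tick) and its 95% interval (grey bar, limma on 2 arrays a genotype); dotted lines mark a 2-fold change. Intervals of 23 genes stay between the dotted lines, and those of Zim1, Mkrn3 and Zdbf2 reach past at least 1 of them.

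The Dlk1-Dio3 cluster holds the paternally expressed Dlk1, a transmembrane relative of Notch ligands that marks fetal hepatoblasts, and the maternally expressed long noncoding RNA Meg3. Dlk1 gave 8483 and 8849 in p57+/+ against 8717 and 10335 in p57-/-. The genotypes overlapped, and the log2 change was 0.13 (SE 0.12, 95% interval -0.14 to 0.40, adjusted p = 0.812). A dimmer Dlk1 probe set, Absent on both arrays of experiment 2, gave -0.34 (SE 0.40). Meg3 gave 13283 and 16587 in p57+/+ against 15381 and 15443 in p57-/-. Here the p57-/- arrays lay between the p57+/+ arrays, with a change of 0.05 (SE 0.13, 95% interval -0.23 to 0.34).

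Meg3 had 11 probe sets, more than any other member, and all 11 were tested. The 3 brightest probe sets changed by 0.05, -0.02 and 0.13, each with overlapping genotypes. The dimmer ones spread from -1.01 to 0.74, with 4 of the 11 higher and 7 lower. Meg3 also supplied 3 of the 5 member probe sets with an unadjusted p under 0.05, and they disagreed in direction. The first gave 126 and 219 in p57+/+ against 83.0 (Marginal) and 82.6 in p57-/-, a change of -1.01 (SE 0.34, adjusted p = 0.573). Another gave 282 and 333 against 259 and 108, a change of -0.87 (SE 0.37, adjusted p = 0.637), nearly all of it from experiment 2, at -1.62 there and -0.12 in experiment 1. The third gave 106 and 132 (Marginal) against 178 and 219, a change of 0.74 (SE 0.27, adjusted p = 0.590), with 0.75 and 0.73 in the experiments. Which Meg3 transcripts each probe set reads is not given in the sources used here.

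**Figure D3:**
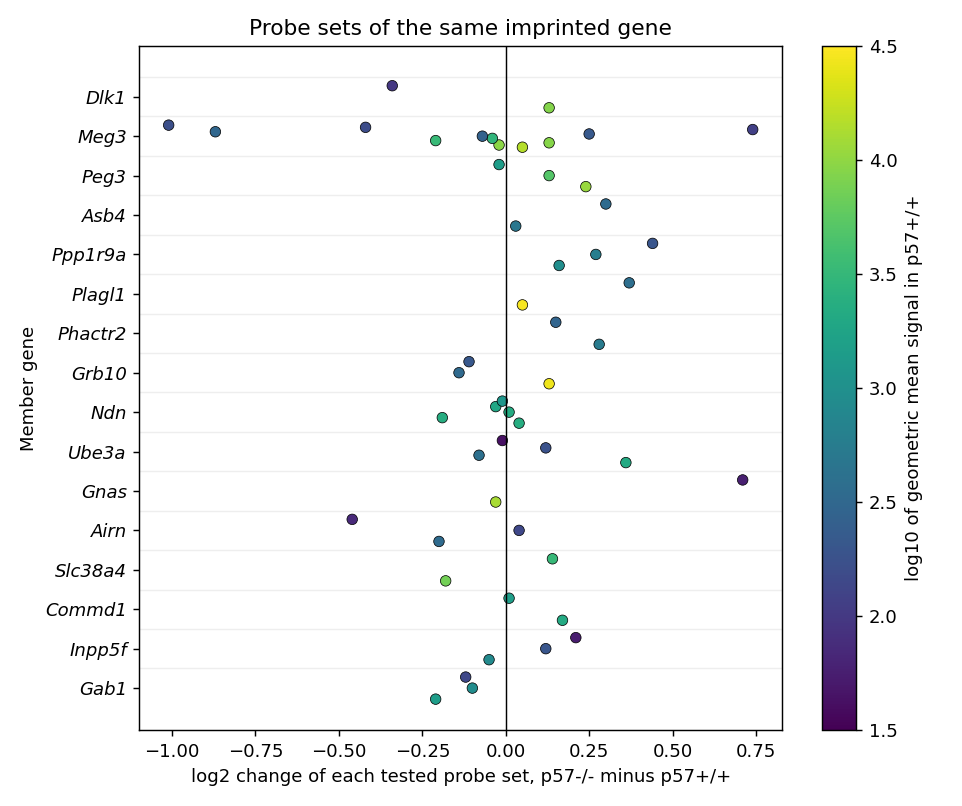
Log2 change of every tested probe set of the 16 imprinted genes with more than 1, p57-/- minus p57+/+, coloured by the geometric mean signal in p57+/+ (log10). Bright probe sets lie near 0, and the widest spread within a gene is that of Meg3, from -1.01 to 0.74.

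In the Peg3 cluster, Peg3 encodes a paternally expressed zinc finger protein. It gave 10122 and 11699.9 in p57+/+ against 12913 and 12745 in p57-/-. Both p57-/- arrays were above both p57+/+ arrays, and the change was 0.24 (SE 0.12, 95% interval -0.02 to 0.50, adjusted p = 0.653). Without p57+/+ replicate 1 it was 0.13. Its other tested probe sets gave 0.13 (SE 0.13) and -0.02 (SE 0.14). Usp29, a ubiquitin protease gene that starts 163 bases from Peg3 on the other strand, did not pass the filter: 1 of its 2 probe sets was Absent on all 4 arrays, at 23.7 and 17.7 against 58.0 and 40.4, and the other was Present only on the p57-/- array of experiment 1, at 46.1. Peg3 itself had 2 more probe sets, both Absent on all 4 arrays, so a call depends on the probe set. Of the pair whose shared start region is printed above, only Peg3 had a probe set that passed the filter. Whether their transcript levels differ cannot be read from this. Zim1, a maternally expressed zinc finger gene, gave 54.6 and 61.0 (Marginal) in p57+/+ against 100.1 and 37.5 (Absent) in p57-/-. It lay higher in experiment 1, at 0.87, and lower in experiment 2, at -0.70, and its interval of -1.11 to 1.28 shows how little this probe set resolves.

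Mest, a paternally expressed gene for an enzyme of the hydrolase fold, gave 7795 and 8736 in p57+/+ against 9208 and 8681 in p57-/-, a change of 0.12 (SE 0.12, 95% interval -0.14 to 0.37). Copg2 overlaps Mest in the annotation and encodes a subunit of the vesicle coat. It gave 839 and 742 against 813 and 819, a change of 0.05 (SE 0.15). Neither gene separated the genotypes.

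Around Peg10 and Sgce, 3 of 4 members were tested. Sgce, which encodes epsilon-sarcoglycan, gave 2264 and 1599 in p57+/+ against 1887 and 1670.1 in p57-/-, so both p57-/- arrays lay within the p57+/+ gap (change -0.10, SE 0.18). Asb4, a maternally expressed ubiquitin ligase adaptor, gave 493 and 484 against 603 and 415, higher in experiment 1 (0.29) and lower in experiment 2 (-0.23), a change of 0.03 (SE 0.21). The other Asb4 probe set was higher in both, at 0.42 and 0.18, with a change of 0.30 (SE 0.23) and overlapping genotypes. Ppp1r9a, which encodes the actin-binding protein neurabin, gave 830.3 and 1067 against 986 and 1116. All 3 tested Ppp1r9a probe sets were higher in both experiments, with changes of 0.16 (SE 0.17), 0.27 (SE 0.17) and 0.44 (SE 0.24), and the genotypes were apart for the dimmer 2 of them. None passed, at adjusted p = 0.846, 0.729 and 0.688. Peg10, a gene derived from a retrotransposon, had 1 probe set that was Present on no array, at 50.2 and 62.6 in p57+/+ against 22.1 and 30.7 in p57-/-.

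Plagl1 encodes a zinc finger transcription factor that is known to bind and activate several other imprinted genes. It gave 28647 and 30667 in p57+/+ against 29995 and 31467 in p57-/-, the narrowest spread of any tested member, with a change of 0.05 (SE 0.10, 95% interval -0.18 to 0.28, adjusted p = 0.922). That change was -0.02 after quantile normalization. Its other tested probe set gave 320.3 and 459.6 against 552 and 445, 0.79 in experiment 1 and -0.05 in experiment 2. The bright Plagl1 probe set carries the suffix that the maker gives to sets with probes that can match other transcripts, as do those used for Meg3 and Ndn; those used for Dlk1, Gnas and Commd1 carry the suffix for probes shared between transcripts. Phactr2, an actin and phosphatase regulator near Plagl1, gave 569 and 517 against 703 and 618. Its p57-/- arrays were both above the p57+/+ arrays, by 0.31 and 0.26 in the experiments (change 0.28, SE 0.17, adjusted p = 0.714), and the other tested probe set gave 0.15 (SE 0.21).

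Grb10, an adaptor that restrains signalling by insulin and IGF receptors and is maternally expressed outside neurons, gave 24840.0 and 28762 in p57+/+ against 28829 and 29784 in p57-/-. The genotypes were just apart, because the lower p57-/- value was 28829 and the higher p57+/+ value 28762, and the change was 0.13 (SE 0.11, 95% interval -0.12 to 0.38). The other Grb10 probe sets lay lower, at -0.14 (SE 0.33) and -0.11 (SE 0.25). Its neighbour Cobl, an actin nucleator, had the lowest change of the members: it gave 218 and 166 against 139.9 and 150.5, a change of -0.39 (SE 0.26, 95% interval -0.98 to 0.20, adjusted p = 0.747). Experiment 1 gave -0.64 and experiment 2 gave -0.14, and without p57+/+ replicate 1 the change was -0.19.

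In the Prader-Willi and Angelman cluster the paternally expressed Ndn and the ubiquitin ligase gene Ube3a were the well-detected members. Ube3a is expressed from the maternal copy in neurons and from both copies in most other cells. It gave 2339 and 1869.7 in p57+/+ against 2934 and 2469 in p57-/-, with 0.33 in experiment 1 and 0.40 in experiment 2. Both p57-/- arrays were above both p57+/+ arrays, and the change of 0.36 (SE 0.15, 95% interval 0.02 to 0.71) had an unadjusted p of 0.0419 and an adjusted p of 0.640. The other 3 tested Ube3a probe sets gave 0.12, -0.08 and -0.01. Leaving out 1 array moved the brightest from 0.36 to 0.20 without p57+/+ replicate 2 and to 0.24 without p57-/- replicate 1. Ndn, which encodes the growth-restraining protein necdin, gave 2209.6 and 2497 in p57+/+ against 2171 and 2701 in p57-/-. Its 5 tested probe sets stayed between -0.19 and 0.04, with the genotypes overlapping in each.

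Mkrn3, a ring finger gene of the same cluster known to restrain the onset of puberty, had the highest change of the members and one of the least certain. It gave 27.9 and 30.5 (Absent) in p57+/+ against 92.3 and 43.9 in p57-/-. It was Present on both p57-/- arrays and on the p57+/+ array of experiment 1. Mkrn3 thus met the filter only with calls from p57-/-, where it was higher. The genotypes were apart, but the change of 1.13 (SE 0.56, 95% interval -0.14 to 2.39, adjusted p = 0.662) came mostly from experiment 1, at 1.73 against 0.52. Without p57-/- replicate 1 it was 0.59. Magel2 was Present on 1 array, the p57+/+ array of experiment 1, at 82.9. The only Snrpn probe set with that symbol alone was Absent on all 4 arrays, while 6 others are shared by name with a second gene and were not used.

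Nnat, a small membrane protein gene that lies inside Blcap, gave 192 and 204 in p57+/+ against 206 and 232 in p57-/-, a change of 0.14 (SE 0.23) with the genotypes apart. Blcap gave 511 and 662 against 613 and 685, a change of 0.16 (SE 0.18) with the genotypes overlapping. Both genes lay higher in both experiments, and each fitted change was smaller than its SE.

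Gnas encodes the stimulatory G protein alpha subunit and several imprinted alternative transcripts. It gave 12994 and 12338 in p57+/+ against 13254 and 11540.1 in p57-/-, a change of -0.03 (SE 0.12, 95% interval -0.29 to 0.23, adjusted p = 0.956). A dim Gnas probe set gave 63.8 and 51.8 against 102 and 86.5, higher by 0.68 and 0.74 in the experiments (change 0.71, SE 0.38, adjusted p = 0.681), and 3 others were not tested. Airn, the paternally expressed noncoding RNA that silences Igf2r, gave 362 and 334 against 343 and 268, a change of -0.20 (SE 0.21) that was -0.02 without p57-/- replicate 2. Another Airn probe set gave 121 and 167 against 208 and 102, with opposite directions in the experiments. The third tested one, at 82.0 and 59.1 against 49.8 and 51.6, was lower in both, with a change of -0.46 (SE 0.43) and the genotypes apart.

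Of the genes outside clusters, Zdbf2, a paternally expressed zinc finger gene, had the largest change among members Present on all 4 arrays. It gave 135 and 159 in p57+/+ against 268 and 189 in p57-/-. The genotypes were apart, and the change was 0.62 (SE 0.27, 95% interval 0.01 to 1.22), with an unadjusted p of 0.0468 and an adjusted p of 0.642. Experiment 1 gave 0.99 and experiment 2 gave 0.25. Without p57-/- replicate 1 the change was 0.36.

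Slc38a4, a paternally expressed amino acid transporter, and Gab1, a docking protein downstream of growth factor receptors, lay lower in p57-/- in both experiments. Slc38a4 gave 7409 and 7125 in p57+/+ against 6654 and 6215 in p57-/-, a change of -0.18 (SE 0.11, adjusted p = 0.729), while its other probe set gave 0.14 (SE 0.17). Gab1 gave 1515 and 1340.4 against 1289 and 1184, a change of -0.21 (SE 0.14, adjusted p = 0.750) that was -0.12 without p57+/+ replicate 1. All 3 Gab1 probe sets were lower in both experiments, the others by -0.10 and -0.12. In Slc38a4 and Gab1 the genotypes were apart.

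Commd1, a regulator of copper export and NF-kappaB, gave 2165 and 2026 in p57+/+ against 2464 and 2252 in p57-/-, a change of 0.17 (SE 0.13) with the genotypes apart. Impact, a regulator of translation under amino acid starvation, gave 644 and 564 against 812 and 576, a change of 0.18 (SE 0.20). Inpp5f, an inositol phosphatase gene, gave 765 and 919 against 826 and 796, a change of -0.05 (SE 0.16). The last pair of genes overlapped between genotypes. Nap1l5 was Absent on all 4 arrays, at 29.0 to 51.6, and Rasgrf1 was Present on no more than 1 array with any of its 3 probe sets.

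By the 1 probe set that represents each gene, members lay higher in p57-/- more often than lower. Of the 26 genes, 13 were higher in both experiments (50%, beside 29.6% of all tested genes) and 4 were lower in both (15.4%, beside 26.7%), and 9 moved in opposite directions. The 4 were Airn, Cobl, Gab1 and Slc38a4. Mkrn3, which met the detection filter only with its p57-/- calls, is among the 13. With probe sets Present on all 4 arrays, 12 of 24 genes were higher in both and 4 lower, beside 30.1% and 26.3% of all genes so tested. With the mean of all tested probe sets of a gene, 9 of the 26 were higher in both, not 13, and 4 were lower. These stand beside 28.8% and 27.2% of all tested genes. Both p57-/- arrays were above both p57+/+ arrays in 8 genes (30.8%, beside 21.7% of all tested genes) and below in 3 (11.5%, beside 19%). Mkrn3 is again among the 8. A change of 2-fold or more was seen in 1 member in experiment 1, Mkrn3 (3.85%, beside 3.53% of all tested genes), in 0 in experiment 2 (beside 2.58%), and in 0 with the same direction each time (beside 0.403%). The members were listed with earlier results of these data known, and these counts carry no test.

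**Figure D4:**
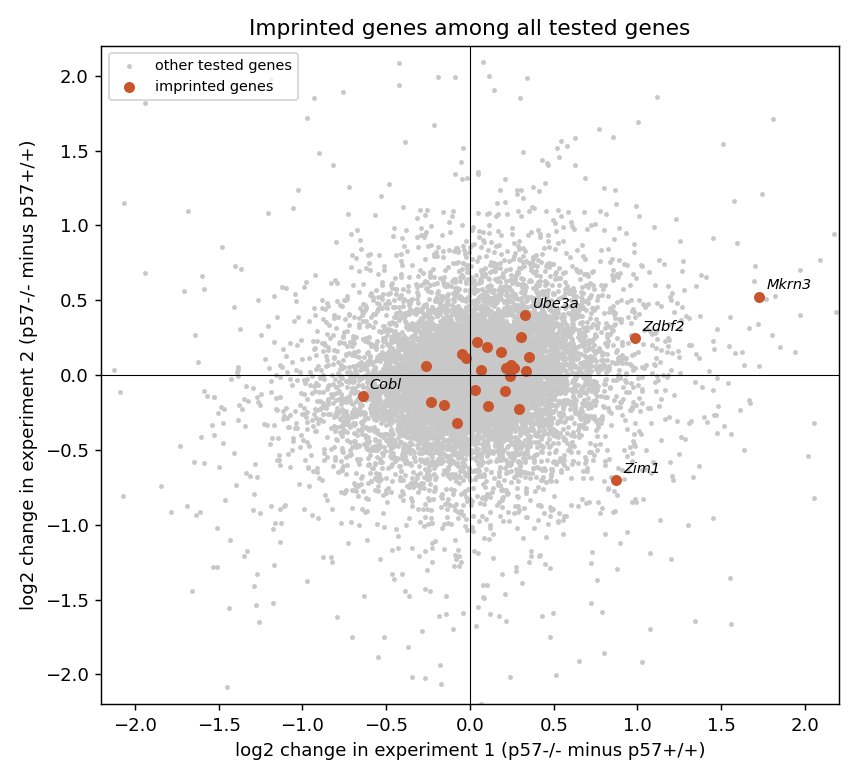
Log2 change in experiment 1 against experiment 2 for the 26 imprinted genes (orange) and the other tested genes (grey), p57-/- minus p57+/+; 104 other genes lie outside the axes. Most imprinted genes lie near the middle, with Mkrn3, Zdbf2, Zim1 and Cobl farthest from it along the experiment 1 axis.

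The experiments differed in size. The members' median was 0.20 in experiment 1, where 19 of 26 were higher (73.1%, beside 53.7% of all tested genes), and 0.05 in experiment 2, where 16 were higher (61.5%, beside 49.2%). Marker genes of other cells moved between the arrays as well. The 8 tested mesenchyme genes had medians of 0.39 in experiment 1 and 0.05 in experiment 2, with summed signals of 65509 and 74333 in p57+/+ against 84876 and 77359.6 in p57-/-. The 5 tested endothelial genes had medians of 0.53 and -0.09, with sums of 4158 and 4832 against 6139 and 4416. For the 6 tested hepatocyte genes the medians were 0.21 and -0.17. The 8 tested red cell genes had medians of -0.76 and -0.26, with sums of 77153 and 79704 against 55274 and 68700.4. Of these 8, 7 were lower in both experiments, beside 26.7% of all tested genes. The part of these cells in the members' values was not tested.

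The members were also split by the parental copy they are listed as expressing. The 13 tested genes listed as paternally expressed had a median change of 0.12, and the 11 listed as maternally expressed had 0.13, with 7 and 6 higher in both experiments and 3 and 1 lower in both, beside 29.6% and 26.7% of all tested genes. Both classes follow the list alone, and the maternal class includes Ube3a, by its listing in neurons. Whether any listed gene is expressed from 1 copy in these cells was not measured. The other 2 genes, Gnas and Inpp5f, moved in opposite directions in the experiments. As a measure of how bright a probe set is, and not of transcript level, geometric mean signals reached 1000 in 13 members (50%, beside 38.6% of all tested genes), and among these the changes ran from -0.21 to 0.36. Their median size was 0.13, and it was 0.13 over all 4497 tested genes as bright. The 13 dimmer members ran from -0.39 to 1.13, and their intervals were wider, with a median half-width of 0.47 against 0.27.

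A separate list held mostly genes for proteins that set, keep or remove DNA methylation or other chromatin marks. Of its 26 genes 20 were tested, 0 passed the threshold in either direction, and the median change was 0.01. Of the 20, 7 were higher in both experiments and 5 lower, beside 29.6% and 26.7% of all tested genes. The largest changes were those of Tet1, an enzyme that oxidises methylated cytosine, at 0.51 (SE 0.26, adjusted p = 0.667), Uhrf1, which brings the maintenance methyltransferase to newly copied DNA, at -0.45 (SE 0.20, adjusted p = 0.644), and Tet2 at 0.39 (SE 0.17, adjusted p = 0.642). Uhrf1 gave 4453 and 5043 in p57+/+ against 2721 and 4439 in p57-/-, so most of its change lay in experiment 1. Of 20 receptors, ligands and partners of the members' pathways 17 were tested and 0 passed, with a median of 0.12. Of the 17, 10 were higher in both experiments and 2 lower, beside the same 29.6% and 26.7%. The insulin receptor substrate gene Irs1 gave 0.43 (SE 0.16, adjusted p = 0.606), the ubiquitin ligase gene Siah1a -0.41 (SE 0.16, adjusted p = 0.610), and the inhibitory G protein gene Gnai1 0.37 (SE 0.16, adjusted p = 0.634).

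Of 17 genes listed around Cdkn1c, 11 were tested. Including the deleted gene itself, 6 were lower in both experiments and 0 were higher in both, beside 26.7% and 29.6% of all tested genes, and the median was -0.15. After Cdkn1c, the only one past the threshold, the largest changes were those of Slc22a18 at -1.02 (SE 0.25, adjusted p = 0.519) and Phlda2 at -0.52 (SE 0.15, adjusted p = 0.549). The difference between that list and the members was not tested.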

How the data were processed

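Per the labels' protocols, each array took 250 ng of total RNA, amplified and biotin-labelled. The authors deposited, per the file headers, a MAS5 signal intensity per probe set on a linear scale, scaled by array, with a detection p-value and a call of Present, Marginal or Absent. The MAS5 version is not given here. Scaling to a common mean hides a change in total RNA, and dim signals are noisy on a log scale.

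Signals were log2 transformed with no pseudocount. Controls were left out, and probe sets Present on at least 2 of 4 arrays were tested with limma 3.58.1 in R 4.3.3 (eBayes with a variance trend, no block), two-sided, with Benjamini-Hochberg adjustment over all 22800 tested probe sets and a threshold of 0.05. The fit was tested on simulated data. The number of arrays limits the precision. A gene is represented by its tested probe set of highest mean log2 signal. All members are named, and of the other lists the genes past the threshold and the 3 of largest change. Members and lists were chosen with earlier results of these data known. Symbols came from the platform annotation, and all 32 members on the array matched RefSeq by gene ID. RefSeq was used for names, gene order and start-site sequences.

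Alternatives were quantile normalization, log2(signal + 16), other detection filters, no variance trend, the experiment as a block, leaving out each array, and averaging a gene's probe sets.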

Additional observations from a re-analysis of the deposited data

How the results depend on the processing

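In every alternative run on probe sets, limma called 0 member probe sets at an adjusted p under 0.05, and the lowest adjusted p of a member gene was 0.229, without p57-/- replicate 2. The median log2 change of the tested members stayed between 0.03 and 0.15 over the 11 alternatives. Over all probe sets the count past the threshold was 1, and it was 0 with probe sets Present on all 4 arrays, a filter that removes Cdkn1c, and 5 to 221 when 1 array was left out, the most without p57-/- replicate 2. When an array is left out, the lone array of a genotype is assumed to vary like the others. With the experiment as a replicate block the count past the threshold was 30. Same-numbered arrays' deviations from their group means had a correlation of 0.0046 over the 22800 tested probe sets. The test that is reported has no block, although changes by experiment are taken within a number. A single correlation over all probe sets cannot show whether the experiment affected some of them. The block changed no call among the members, and the lowest adjusted p of a member gene was then 0.405. With no detection filter, over 32 genes, 15 members were higher in both experiments and 8 lower, beside 26.4% and 27.9% of all genes. With the mean of all tested probe sets of a gene, the changes of Dlk1 and Grb10 turned to -0.11 and -0.04. In all, 14 of the 26 genes changed sign in at least 1 alternative, none with a call. The 12 that did not were Peg3, Mest, Phactr2, Cobl, Mkrn3, Ube3a, Nnat, Airn, Zdbf2, Slc38a4, Commd1 and Gab1. Signal over background limits what Zim1 and Mkrn3, near the detection limit, can show.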
